A study of Capra hircus with 90 samples.

Results

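The comparison described here sets the ventral respiratory column (VRC) of goats kept for 24 h in 6% inspired CO2 against that of other goats kept for 3 h in the same gas. Its members were taken by sample title and number 12 of the 90 libraries of the series: 6 of VRC, 24 h of CO2 and 6 of VRC, 3 h of CO2. All goats were adult, outbred females of at least 2 years, each assigned at random to 1 exposure, so the goats of the 2 times are different animals. The punch was taken 2 to 4 mm rostral to the obex, and its target was to include the pre-Bötzinger complex and the nucleus ambiguus. RNA of both times was extracted and sequenced in batch 1, together with 6 VRC libraries of goats kept 24 h in room air, which are given as background. No room-air group of 3 h belongs to the design. The question is which transcripts differ between an early and a later time under the same CO2, with the room-air group left out of the contrast.

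Raised inspired CO2 (hypercapnia) acidifies blood and brain, widens cerebral vessels and drives breathing. The VRC is the column of respiratory neurons in the ventrolateral medulla that generates and shapes the breathing rhythm. A punch holds its neurons together with glia, microglia, vessel wall and blood. The level of a transcript in such bulk tissue can differ because fewer cells of a type are present or because each cell holds less of the RNA, and these cannot be told apart here.

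The 24 h libraries held 18.9 ± 6.76 M counts (SD, n = 6, range 5.46 to 24.2) and the 3 h libraries 20.9 ± 2.53 M (17.1 to 23.3). The shallowest was number 4 of 24 h. Total counts, genes detected and the share of counts in the 50 most abundant genes did not pass an exact permutation test (2-sided, 924 regroupings, adjusted p = 0.890, 0.890 and 0.455, smallest unadjusted p possible 0.00216). Levels are given as CPM, read counts scaled to library size with TMM factors, and differences as log2 of 24 h over 3 h. Symbols were available for 229 of the genes tested, all of them genes the authors had listed on these same libraries. PRPH, an intermediate filament of cranial motor neurons such as those of the nucleus ambiguus, was present in all 12 libraries, at 2.01 to 29.5 CPM. Its presence does not by itself identify the VRC. Markers that define the VRC carry no symbol here and were not checked.

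Of 15424 genes tested between 24 h and 3 h, 0 passed an adjusted p of 0.05 (0% called, edgeR quasi-likelihood test with Benjamini-Hochberg adjustment, lowest adjusted p 0.261). Without adjustment, 1087 genes (7.05%) had a p under 0.05, 601 with a higher mean at 24 h (3.9%) and 486 with a lower one (3.15%). A uniform spread of p-values would give 771.2 genes. With other tools limma voom called 0 genes, DESeq2 14 (9 higher, 5 lower) and a likelihood ratio test over all 90 libraries 3 (all lower). THBD and TUBB6 were the genes with a symbol among the 14, at adjusted p of 0.0449 and 0.0455 in DESeq2, and TUBB6 among the 3. The 6 and 6 libraries did not overlap in 65 genes (0.421%), 37 higher (0.24%) and 28 lower (0.182%), and in 0 of the genes with a symbol. The median log2 difference over all genes was -0.0044, and the middle 50% of genes lay between -0.12 and 0.12. The precision sets what could be seen. Among 14177 genes with a mean of at least 1 CPM the 95% interval of the difference stayed within ±0.5 for 61.0% and within ±1 for 91.4%, while 107 genes had a difference over 1 in size. Against the same room-air libraries, 2 genes passed after 3 h (0.013%) and 126 after 24 h (0.817%). These contrasts share libraries with the one between times, and their values are only set beside it below.

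**Figure D1:**
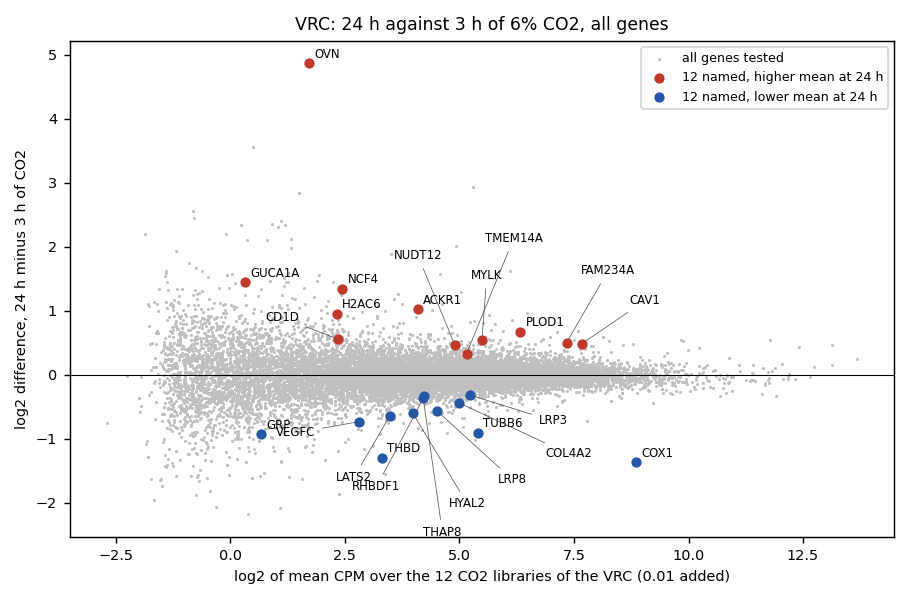
Each point is 1 gene: the horizontal axis is log2 of its mean CPM over the 12 CO2 libraries of the VRC, the vertical axis the log2 difference of 24 h minus 3 h. Grey points are all 15424 genes tested; red and blue points are the 12 named genes of lowest p in each direction, none of which passed an adjusted p of 0.05 in edgeR. Most genes lie close to 0, and the spread widens toward low CPM.

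Several genes of the vessel wall were among the genes with a symbol and a lower mean at 24 h that had the lowest p. THBD, the thrombin receptor thrombomodulin of endothelial cells, had 7.00, 15.5 and 21.1 CPM (lowest, median, highest) at 3 h and 2.82, 4.81 and 9.31 at 24 h. The 4 highest 3 h libraries lay above all 24 h libraries, and numbers 5 and 6 of 3 h fell inside the 24 h range. The log2 difference was -1.30 (SE 0.311, 95% interval -1.94 to -0.65, adjusted p = 0.467), which is the 12th lowest p of all genes. Room air gave 3.93 ± 1.68 CPM (SD, n = 6), so the mean after 24 h, 5.60 ± 2.76, was nearer to room air than to the 14.2 ± 5.72 after 3 h. TUBB6, a beta-tubulin of the cytoskeleton, was at 38.8, 51.5 and 81.2 CPM after 3 h and at 21.3, 25.9 and 42.0 after 24 h. Only number 1 of 24 h exceeded the lowest 3 h library. Its difference was -0.91 (SE 0.234, -1.40 to -0.42, adjusted p = 0.494), with 23.9 ± 9.12 CPM in room air.

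VEGFC, a ligand that drives lymphatic and vessel growth, had 5.90, 9.51 and 11 CPM after 3 h and 2.92, 5.35 and 6.60 after 24 h. The ranges met only at number 6 of 3 h and number 5 of 24 h. The difference was -0.73 (SE 0.198, -1.14 to -0.32, adjusted p = 0.494). HYAL2, a hyaluronidase of the cell surface, lay in a narrow band after 3 h, at 17.0, 19.7 and 20.9 CPM. After 24 h it was at 8.22, 10.6 and 19.3, where 5 libraries were below the whole 3 h band and number 5 was inside it. The difference of HYAL2 was -0.60 (SE 0.173, -0.96 to -0.24, adjusted p = 0.494).

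NOS3, the endothelial nitric oxide synthase, had 26, 32.4 and 42.1 CPM after 3 h. After 24 h it was at 15.5 to 18.2 CPM in numbers 2, 3, 4 and 6, but at 32.0 and 37.7 in numbers 1 and 5, inside the 3 h range. Its difference was -0.49 (SE 0.207, -0.92 to -0.06, adjusted p = 0.664). ACVRL1, a receptor for BMP ligands on endothelium, differed by -0.41 (-0.90 to 0.08, adjusted p = 0.773), with 24 h values of 10.1 to 15.2 CPM apart from number 5 at 29.8. RHBDF1, an inactive rhomboid protein that regulates shedding of growth factors, differed by -0.34 (-0.61 to -0.06, adjusted p = 0.643). Of the 9 members of the vessel growth and endothelial list that have a symbol, 7 had a negative difference and 6 an unadjusted p under 0.05, against 19 of all 229 genes with a symbol and 3.15% of all genes in that direction. The list's median was -0.49 against -0.0044 over all genes. All 7 carry a symbol because the authors' deposited tables list them as higher after 3 h in the VRC or in the NTS of the same goats, so their direction is no independent evidence. TUBB6 and RHBDF1 are not particular to vessels, and the list was drawn up with results of these libraries known. Without number 5 of 24 h the list's median was -0.71, and THBD, HYAL2, NOS3 and ACVRL1 differed by -1.54, -0.79, -0.70 and -0.71. The 3 linked endothelial and mural markers (ACKR1, MEOX2 and FOXQ1) summed to 11.3 to 17.6 CPM after 3 h and 7.67 to 71.1 after 24 h, the highest being number 5. Their part in the vessel genes' differences was not tested.

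**Figure D2:**
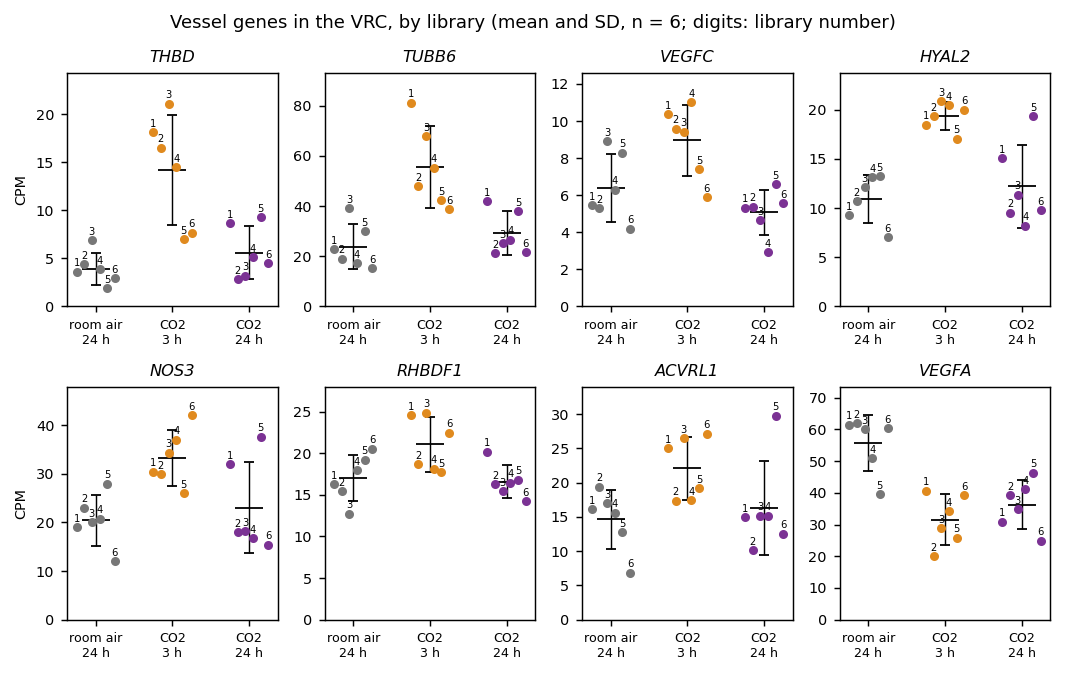
CPM of 8 members of the vessel growth and endothelial list in each VRC library of room air (grey), 3 h of CO2 (orange) and 24 h of CO2 (purple). Each axis starts at 0; digits are library numbers, and bars are the mean and SD of 6 libraries. In the first 7 panels the 3 h mean is the highest of the 3, whereas VEGFA is highest in room air, with means of 31.5 and 36.2 CPM at 3 h and 24 h.

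The other VEGF ligands and the oxygen sensor did not follow that order. EGLN1, the prolyl hydroxylase that marks HIF subunits for degradation, was at 31.4, 41.6 and 65.3 CPM after 3 h and 36.5, 43.2 and 45.2 after 24 h. The ranges overlapped throughout, and the difference was -0.06 (-0.33 to 0.20, adjusted p = 0.954). Room air gave 79.3 ± 9.76 CPM. VEGFA, the main vessel growth factor and a HIF target, differed by 0.20 (-0.15 to 0.55, adjusted p = 0.855), with 31.5 ± 8.04 CPM after 3 h, 36.2 ± 7.68 after 24 h and 55.7 ± 8.89 in room air. VEGFB differed by 0.18 (-0.12 to 0.49, adjusted p = 0.849), with 17.2 ± 3.56, 19.2 ± 4.07 and 32.3 ± 4.07 CPM in the same order. For EGLN1 and VEGFB the interval of the difference lies within ±0.5. VEGFA and VEGFB are on the authors' deposited lists of genes lower than room air in the VRC, chosen on these same libraries. Their place below room air is therefore no independent evidence. EGLN1 too has a symbol only because the authors listed it on libraries of this series.

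In VRC libraries of the second batch the 7 d room-air group was at 35.7 ± 6.96 CPM for EGLN1, 37.5 ± 4.66 for VEGFA and 18 ± 5.86 for VEGFB. These lie near both CO2 groups of batch 1 and below the room-air group of batch 1. Time in room air and batch cannot be told apart in that difference.

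Among genes with a higher mean at 24 h were several of matrix, membrane and smooth muscle. PLOD1, a lysyl hydroxylase that modifies collagen, was at 46.5, 65.9 and 74.6 CPM after 3 h and 52.6, 92.6 and 146 after 24 h. Numbers 1, 2, 5 and 6 of 24 h lay above all 3 h libraries, while 3 and 4 were within their range. The difference was 0.67 (SE 0.200, 0.25 to 1.09, adjusted p = 0.525). CAV1, the coat protein of caveolae, had 152, 170 and 203 CPM after 3 h and 181, 193 and 361 after 24 h. Here 4 libraries of 24 h were at 181 to 194 CPM, inside the 3 h range, and numbers 1 and 5 stood at 311 and 361. The difference of CAV1 was 0.48 (SE 0.157, 0.16 to 0.81, adjusted p = 0.546), and 0.33 without number 5.

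FAM234A differed by 0.50 (0.18 to 0.82) and MYLK, the myosin light chain kinase of smooth muscle, by 0.54 (0.17 to 0.91), both with an adjusted p of 0.546. In both genes numbers 1 and 5 were again the highest 24 h libraries, at 245 and 248 CPM for FAM234A and at 71.0 and 76.4 CPM for MYLK. ACKR1, a chemokine-binding receptor of venules, had 8.78, 12.3 and 14.2 CPM after 3 h and 4.93, 12.3 and 70.1 after 24 h. The medians were equal to 3 digits, and the difference of 1.02 (0.10 to 1.95, adjusted p = 0.683) was 0.20 without number 5. The remaining named genes of this direction were GUCA1A, a guanylate cyclase activator (1.44), the histone H2AC6 (0.95), the NADH hydrolase NUDT12 (0.46), TMEM14A (0.33) and OVN (4.86). OVN was at or under 0.626 CPM in 10 of the 12 libraries and at 9.13 and 27.4 in numbers 4 and 5 of 24 h. In room air it was at 10.2 and 39.7 CPM in 2 of the 6 libraries. Without number 5 of 24 h the difference was 2.15 for OVN and 0.53 for H2AC6.

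Myeloid genes lay on the same side. NCF4, a cytosolic component of the NADPH oxidase of phagocytes, had 1.93, 3.18 and 5.00 CPM after 3 h and 3.47, 5.36 and 14.9 after 24 h. Numbers 1 and 5 of 24 h were at 12.7 and 14.9 CPM, and the other 4 between 3.47 and 5.79. The difference was 1.34 (SE 0.343, 0.63 to 2.05, adjusted p = 0.494), and 1.01 without number 5. CD1D, which presents lipid antigens, differed by 0.56 (0.05 to 1.07), and AIF1, the microglial protein IBA1, by 0.26 (0.01 to 0.51). CD1D differed by 0.29 without number 3 of 24 h, and over the 12 fits that each leave out 1 library it had an unadjusted p under 0.05 in 6 and AIF1 in 4. With CD14 (0.34), the lipopolysaccharide co-receptor, and the myosin MYO1G (0.24), all 5 linked members of the microglial and myeloid list had a positive difference, 3 with an unadjusted p under 0.05, against 16 of the 229 genes with a symbol and 3.9% of all genes in that direction. NCF4 and CD1D carry a symbol because the authors' deposited table lists them as higher in the VRC at 24 h, on these same 24 h libraries, so their direction is no independent evidence. The list's median was 0.34. Of the 23 genes listed, the other 18 carry no symbol here. The summed level of the 5 was 104 to 159 CPM after 3 h and 143 to 160 after 24 h, with 104 to 146 in room air.

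Numbers 1 and 5 of the 24 h group could be followed to the other sites, where libraries of the same number and exposure come from punches of the nucleus of the solitary tract (NTS) and the retrotrapezoid nucleus (RTN). ACKR1 in number 5 was at 70.1 CPM in the VRC, 85.8 in the NTS and 67.8 in the RTN, and in number 1 at 24.2, 32.8 and 37. The other 4 numbers lay between 2.43 and 14.8 CPM over the 3 sites. NCF4 had the same first and second library at each site: number 5 at 14.9, 18.4 and 10.8 CPM and number 1 at 12.7, 9.26 and 9.66, with the other 4 between 3.47 and 5.86. CAV1 was highest in number 1 in the NTS (341 CPM) and the RTN (328), and highest in number 5 in the VRC. Deviations of same-numbered libraries from their group means correlated between the VRC and the other sites at a median of 0.245 (0.145 to 0.364, 24 pairs), against -0.043 for different numbers. The labels give 6 goats per exposure and 3 sites per goat, without tying numbers to goats. The high values of ACKR1 and NCF4 at 24 h were thus those of 2 numbers at each of the 3 sites. The part of these 2 in the differences of PLOD1, FAM234A and MYLK was not tested beyond leaving out each library in turn.

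**Figure D3:**
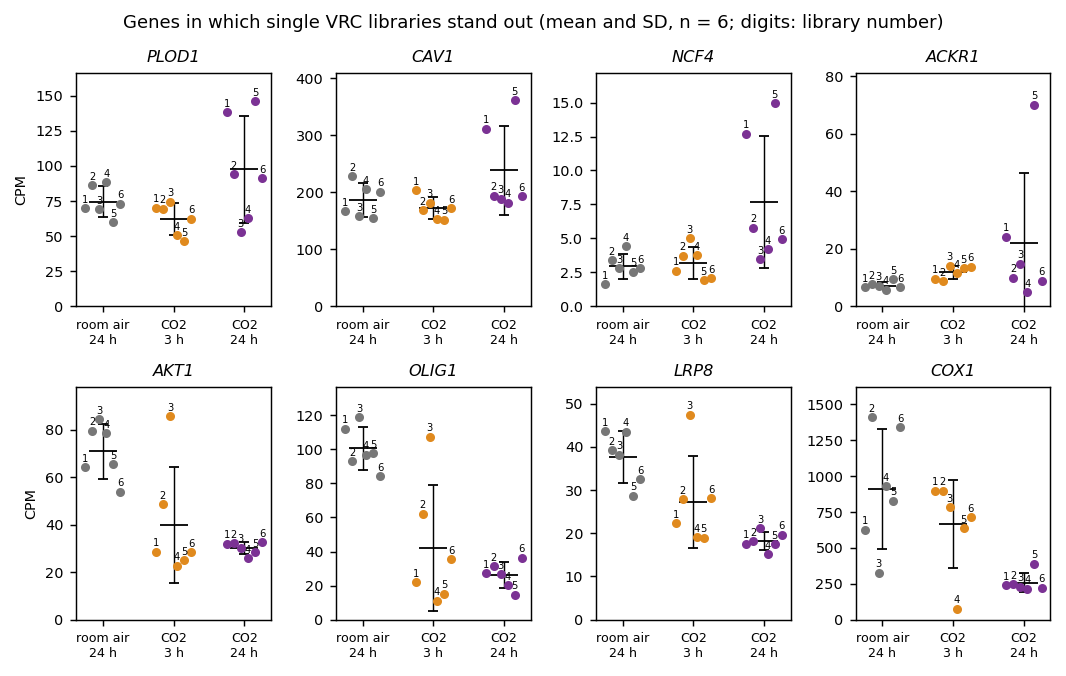
CPM of 8 genes in each VRC library of room air (grey), 3 h (orange) and 24 h (purple) of CO2, with library numbers as digits and the mean and SD of 6 libraries as bars. In the upper row numbers 1 and 5 of 24 h are the highest. In AKT1, OLIG1 and LRP8 number 3 of 3 h lies near the room-air libraries, and in AKT1 and LRP8 above all of them. In COX1 number 4 of 3 h is the lowest of all.

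The other named genes of lower mean at 24 h held receptors, a kinase and a matrix gene. GRP, the neuropeptide gastrin-releasing peptide, was low throughout, at 0.869, 2.28 and 2.79 CPM after 3 h and 0.516, 1.12 and 1.46 after 24 h. Number 3 was the lowest library in both groups, and all other 3 h libraries lay above the 24 h range. The difference was -0.93 (SE 0.293, -1.54 to -0.32, adjusted p = 0.546). THAP8, a zinc finger protein, was at 16.1 to 23.4 CPM after 3 h and 13.3 to 18.6 after 24 h, with a difference of -0.37 (-0.62 to -0.13, adjusted p = 0.546). The room-air mean of THAP8 was 24.7 ± 2.90 CPM, and the 3 h mean of 20.9 ± 2.61 lay between room air and the 24 h mean of 16.1 ± 2.00. The 24 h mean was below room air at an adjusted p of 0.0169 in the edgeR test. Like every gene with a symbol, THAP8 was listed by the authors on libraries of this series, so this order is no independent evidence.

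LRP8, a receptor for reelin and apolipoprotein E, was at 19.0, 25.1 and 47.4 CPM after 3 h and 15.2, 17.9 and 21.1 after 24 h. The 47.4 belongs to number 3 of 3 h and is above the highest room-air library, 43.6 CPM. The difference was -0.57 (-0.95 to -0.19, adjusted p = 0.546), and -0.33 without number 3. LATS2, a kinase of the Hippo pathway, differed by -0.64 (-1.10 to -0.19) and by -0.41 without that library, in which it was at 23.5 CPM against 7.33 to 14.8 in the other 3 h libraries. COL4A2, a collagen chain of basement membranes, differed by -0.44 (-0.76 to -0.12), and LRP3, a lipoprotein receptor relative, by -0.32 (-0.60 to -0.04), which was -0.21 without number 3 of 3 h. After 24 h LRP8, LATS2, COL4A2 and LRP3 were below room air at adjusted p of 0.0151, 0.0163, 0.0214 and 0.0105 in the edgeR test. The authors listed these genes on libraries of this series, so their direction is no independent evidence.

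Number 3 of 3 h stood close to room air over a whole list. Among the genes lower than room air after 24 h in the VRC, as listed in the authors' deposited table, 95 could be tested here. Taking the median over these genes of the log2 level against the room-air mean (0.5 CPM added), number 3 of 3 h was at 0.013. The other 3 h libraries were at -0.44 (number 2), -0.83, -0.98, -1.13 and -1.14, and the 24 h libraries between -0.85 and -1.11. Number 3 was the highest of the 6 libraries of 3 h in 79 of the 95 genes. The 4 lowest libraries of 3 h thus lay at or near the 24 h range, and the 3 h libraries spread more widely than those of 24 h. The median difference between 24 h and 3 h for these genes was -0.32, with 92 of 95 negative, whereas 48.9% of all genes were positive. An unadjusted p under 0.05 in that direction was found in 13 of them, against 3.15% of all genes. Without number 3 the median was -0.10. The authors chose these genes on the room-air libraries and on the 24 h libraries that enter the contrast, without the 3 h libraries. Neither the direction of the list nor its narrower spread at 24 h is therefore independent evidence. In the NTS and the RTN, number 3 of 3 h was at 0.06 and 0.35 on the same scale against room air of the site, within the range of the other 3 h libraries there.

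AKT1, a kinase of growth signalling, shows the pattern in 1 gene. It was at 85.8 CPM in number 3 of 3 h, at 48.6 in number 2 and at 22.8 to 28.7 in the other 4, against 25.9 to 32.7 after 24 h and 54 to 84.4 in room air. The difference was -0.39 (-0.93 to 0.15), and -0.01 without number 3. OLIG1, a transcription factor of the oligodendrocyte lineage, was at 107 CPM in number 3, at 62.2 in number 2 and at 11 to 35.4 in the other 3 h libraries, against 14.7 to 36.3 after 24 h. Its difference of -0.68 (-1.60 to 0.23, adjusted p = 0.803) was -0.16 without number 3, and that of OLIG2, its relative, -0.56 and -0.15. The median over the 6 linked growth signalling kinases and adaptors was -0.31 with number 3 and -0.04 without it. That of the 4 linked Wnt pathway genes (DACT3, APCDD1, RHOU and CCDC85C) was -0.20 with it and 0.15 without it. The p53 targets PPM1D and PHLDA3 differed by -0.48 and -0.39, and by -0.17 and 0.13 without number 3.

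The companion list of genes higher than room air at 24 h in the authors' deposited table had 16 testable members. All 16 had a positive difference between 24 h and 3 h, against 48.9% of all genes, and their median was 0.42. An unadjusted p under 0.05 was found in 8 of them, against 3.9% of all genes in that direction. The contrast shares the 24 h libraries with the choice of these genes as well. ENSCHIG00000004739, picked out after its values were seen, was the 1 member whose 6 and 6 libraries did not overlap, at 14.0 ± 1.49 CPM after 24 h and 9.63 ± 0.710 after 3 h (difference 0.57, SE 0.115, adjusted p = 0.322). Over all genes, 0.24% did not overlap in that direction. Per library the list's median against room air was 0.19 to 0.74 after 3 h and 0.50 to 0.91 after 24 h, so the ranges overlapped. Leaving out number 5 of 24 h and number 3 of 3 h together gave a median of 0.29. The 5 testable genes of the deposited list higher at 3 h in the VRC had a median of -0.60, and 4 of them had a lower mean at 24 h than at 3 h. They were chosen on the same 3 h libraries, so this direction is no independent evidence either.

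COX1, the mitochondrially encoded catalytic subunit of cytochrome c oxidase, was at 75.4, 747 and 898 CPM after 3 h and at 217, 234 and 390 after 24 h. All 3 h libraries except number 4, at 75.4, lay at 637 CPM or more and above every 24 h library. The difference was -1.37 (SE 0.445, -2.31 to -0.42, adjusted p = 0.570), and -1.60 without that library. In room air COX1 ranged from 326 to 1410 CPM. Over the same goats at the other sites the difference was 0.83 (-0.24 to 1.90) in the NTS and -0.50 (-1.56 to 0.57) in the RTN. The difference between VRC and NTS, -2.20 (-3.72 to -0.67), had an adjusted p of 0.598.

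The nuclear genes of the respiratory chain and ATP synthase did not lie with COX1. All 12 linked ones had a small positive difference, from 0.03 for ATP5IF1, the inhibitor of ATP synthase, to 0.27 for COX17, a copper chaperone of cytochrome c oxidase. None of the 12 had an unadjusted p under 0.05. The 13 linked ribosomal protein genes were all positive too, with a median of 0.19 and a range of 0.06 to 0.36, against 48.9% positive among all genes. The ribosomal genes and these 12 carry a symbol because the authors' deposited table lists them as lower in the NTS at 24 h. Of the 149 tested genes of that list, 117 had a positive difference in the VRC, with a median of 0.13. Of the 13 ribosomal genes, RPS15A, of the small subunit, was the 1 with an unadjusted p under 0.05. RPS15A was at 24.1, 35.4 and 51.1 CPM after 3 h and 45.5, 48 and 52.9 after 24 h. The 3 h libraries spread more widely than those of 24 h: the ribosomal list's median against room air ranged from -0.41 in number 3 to 0.65 in number 4 after 3 h, and from 0.30 to 0.56 after 24 h. Without number 3 of 3 h the medians were 0.09 for the ribosomal list and -0.00025 for the respiratory list. Ribosomal protein genes have many near-identical copies in mammalian genomes, and how reads shared with such copies were counted is not given in the sources used here.

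**Figure D4:**
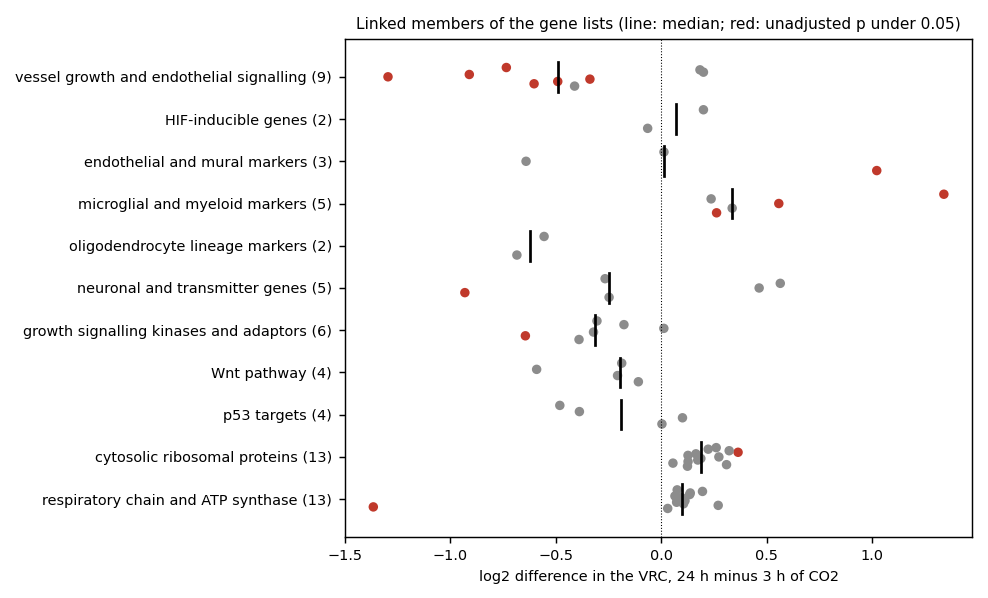
Each point is a linked member of 1 of 11 gene lists, placed by its log2 difference of 24 h minus 3 h in the VRC; the black line is the list's median and the number in brackets its linked members. Red points have an unadjusted p under 0.05; no gene passed after adjustment in edgeR. Members of the vessel growth and endothelial list lie mostly left of 0. Of the 3 endothelial and mural markers 2 lie right of 0, with a median of 0.01. Myeloid, ribosomal and respiratory genes lie mostly right of 0, with COX1 as the 1 respiratory gene far to the left.

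Other marker lists had few linked members. The neuronal and transmitter list held GRP, PRPH, SHOX2, GABRB2 and NPFF, with a median of -0.25. PRPH differed by 0.56 (-0.50 to 1.63) and SHOX2, a homeobox factor, by -0.27 (-0.74 to 0.21). TTR, the transthyretin made by choroid plexus, was at 163 CPM in number 3 of 24 h and at 1.39 to 20.6 in the other 24 h libraries, against 1.56 to 34.2 after 3 h. Its difference of 1.57 (-0.42 to 3.56) was -0.61 without number 3 of 24 h. The 2 blood cell genes, HBQ1 (0.004, -0.44 to 0.45) and HEMGN (0.08), had estimates close to 0. MEOX2, a homeobox gene of brain vessels, was at 0.01 with a wide interval (-0.81 to 0.84). NR1D2, a clock repressor, differed by -0.26 (-0.66 to 0.13). No linked symbol was available for the lists of astrocyte markers, immediate early genes, glucocorticoid-responsive genes, acid-base transporters, CO2 and proton sensors, or heat shock genes.

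The contrast between times was also set against that of the NTS and the RTN, over all 54 libraries of batch 1. Of 16339 genes, 0 differed between VRC and NTS (0% called, lowest adjusted p 0.217, 6.63% at an unadjusted p under 0.05) and 0 between VRC and RTN (0% called, lowest adjusted p 1.00, 1.84%). DESeq2 called 1 and 0 genes in these site contrasts, and leaving out number 4 of 3 h at all sites gave 6 against the NTS in edgeR. In this fit THBD differed between 24 h and 3 h by -1.30 in the VRC, -1.20 in the NTS and -0.96 in the RTN. HYAL2 gave -0.62, -0.54 and -0.55 in the same order, NOS3 -0.50, -0.44 and -0.49, and PLOD1 0.66, 0.64 and 0.71. VEGFC gave -0.74, -1.22 and -0.83. The sites come from the same goats, so these are repeated readings of 12 animals rather than separate evidence. This fit leaves the shared goat out. The site difference against the NTS had an interval of -1.04 to 0.83 for THBD and of -0.58 to 0.62 for PLOD1. With the goat as a block the intervals were -0.75 to 0.56 and -0.30 to 0.24, and for PLOD1 against the RTN -0.35 to 0.20. The goat of each library was inferred from its number, which the labels do not state.

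Against the NTS, 5 genes with a symbol are named for the lowest p of a site difference. MAP1LC3A, the autophagosome protein LC3A, differed by -0.01 in the VRC and -0.63 in the NTS (site difference 0.62, 0.27 to 0.97, adjusted p = 0.554). C15orf48 gave 0.22 and -0.78 (site difference 1.00, 0.43 to 1.57, adjusted p = 0.554). With the goat as a block in the edgeR test, MAP1LC3A gave 0.62 (0.35 to 0.89, adjusted p = 0.213). C15orf48 gave 0.95 with the block (0.44 to 1.47, adjusted p = 0.224), and neither passed. SPA17, HCFC1R1 and AP2S1, a subunit of the clathrin adaptor, gave site differences of 0.80, 0.85 and 0.54. Against the RTN the lowest p was that of TTR, with 1.56 in the VRC and -5.45 in the RTN (site difference 7.01, 3.34 to 10.67, adjusted p = 1.00). In the RTN, TTR was at 0.957, 2.56 and 1905 CPM after 3 h and 4.42, 7.16 and 9.91 after 24 h, so that 1 library of 3 h carried the mean. With the goat as a block its site difference was 1.68 (-2.21 to 5.56). ACER2, an alkaline ceramidase, differed by 0.005 in the VRC and 0.48 in the RTN (site difference -0.47, -0.88 to -0.06, adjusted p = 1.00). LRP8, THAP8 and LATS2 differed by 0.03, 0.00 and -0.02 in the RTN against -0.57, -0.37 and -0.64 in the VRC, and none of these site differences passed the test.

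**Figure D5:**
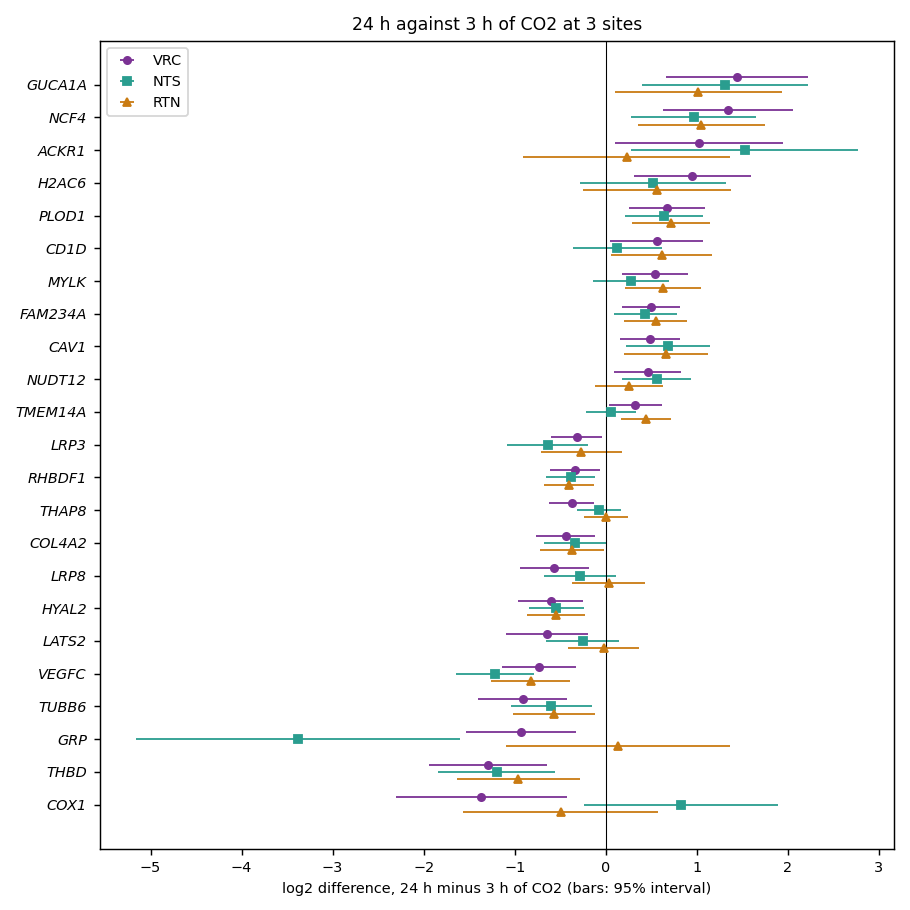
Log2 difference of 24 h minus 3 h of CO2 with its 95% interval for 23 of the 24 named genes in the VRC (purple circles), the NTS (green squares) and the RTN (orange triangles); OVN is left out for its wide interval. Values for the VRC come from the VRC fit and those for the NTS and RTN from the fit over 3 sites. THBD, VEGFC and HYAL2 lie left of 0 at all 3 sites. The estimates of COX1 and GRP are spread between sites, but no site difference of either passed the test. For GRP the SE in the VRC was 0.293 in the VRC fit and 1.13 in the fit over 3 sites.

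By p alone, the first gene with a higher mean at 24 h that has no symbol was ENSCHIG00000015150. It was at 8.47, 9.33 and 10.6 CPM after 3 h and 12, 15.3 and 19.0 after 24 h, with no overlap, and differed by 0.74 (SE 0.136, 0.46 to 1.02, adjusted p = 0.261). Room air gave 14.3 ± 2.35 CPM, so the 3 h group was the low one. The first with a lower mean was ENSCHIG00000015107, at 2.87, 4.91 and 6.00 CPM after 3 h and 1.25, 1.85 and 3.21 after 24 h. Only number 1 of 3 h lay inside the 24 h range. Its difference was -1.21 (SE 0.264, -1.76 to -0.66, adjusted p = 0.378), with 2.55 ± 1.06 CPM in room air.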

How the data were processed

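The submitters' processing notes name the aligner STAR 2.7.10b, the counter featureCounts 2.0.6, edgeR 4.6 and the trimmer fastp 0.24.0. Library kits were SMART-Seq v4 and Nextera XT, with paired reads of 100 bp, per the labels' protocols. Neither build, annotation nor strand setting is given in the sources used here, so no coordinates are printed. The authors deposited raw counts for 25144 Ensembl goat genes. Their deposited comparison tables hold logFC and logCPM as log2 values, LR as a score and PValue and FDR as p-values, per the file headers. Symbols came from those tables: each of 342 entries matched 1 gene by equal mean abundance in a fit of 90 libraries, which gave 238 symbols.

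Tests used edgeR 4.0.16 in R 4.3.3 (TMM, filterByExpr, glmQLFit with legacy=FALSE and robust=TRUE, Benjamini-Hochberg adjustment, threshold 0.05) on the 18 VRC libraries of batch 1, or on 54 libraries for site differences, after a test on simulated data. The rule named the 12 genes of lowest p per direction with a symbol and at least 1 CPM, the list members, the 5 of lowest p per site contrast and 1 identifier per direction. Members and lists were chosen with earlier results of these data known, and the values per library of whole lists were added after seeing the data. Between 3 h and 24 h, deviations of same-numbered libraries correlated at -0.056 to 0.036, so the numbers do not pair them; between sites every pair exceeded 0.1. Alternatives used DESeq2 1.42.0, limma 3.58.1 (voom), sva 3.50.0, RLE factors, other filters, dispersion estimates and sets of libraries; 2 fits without libraries that stood apart were added after seeing the data.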

Additional observations from a re-analysis of the deposited data

Results flagged for a closer look

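In 174 groups of 6 libraries of named genes and 6 of library properties, 22 had 1 library far from the other 5 by Dixon's criterion. The criterion flags about 1 in 20 independent groups of normal values. The genes here share libraries and rise and fall together, so the 22 cannot be read as an excess over that rate. All values are CPM unless stated. Number 5 of 24 h was far above the rest in GUCA1A (3.98), H2AC6 (13.9), OVN (27.4), ACKR1 (70.1), ACVRL1 (29.8) and COX1 (390). Number 3 of 24 h was far above in TTR (163), RPL27 (244), ATP5IF1 (584), COX6B1 (464) and NDUFA13 (209). LATS2 stood out in number 6 of 24 h (10.4) and COL4A2 in number 1 (33.7).

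Number 3 of 3 h was far above the rest in LRP8 (47.4), PHLDA3 (32.1) and CCDC85C (9.82). Number 4 of 3 h was far below in COX1 (75.4) and THAP8 (16.1), and number 5 in MEOX2 (0.276). Number 4 of 24 h had the lowest total, 5.46 M counts, and the fewest genes detected, 16482. Number 1 of 3 h had the highest share of counts in the 50 most abundant genes, 18%.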

How the results depend on the processing

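The count of 0 genes between 24 h and 3 h was 0 under RLE factors, both other filters, the other dispersion estimate, voom, a surrogate variable, the 12 libraries alone, all 30 VRC libraries and both added fits. Without each library in turn it ranged from 0 to 0, with 880 to 1233 genes at an unadjusted p under 0.05. DESeq2 called 14 genes (9 higher, 5 lower), among them THBD (adjusted p = 0.0449), TUBB6 (0.0455), ENSCHIG00000015150 (0.00274) and ENSCHIG00000015107 (0.0438). The likelihood ratio test over 90 libraries called 3, all lower, among them TUBB6 (adjusted p = 0.0473). The cause was not tested. The replicate number as a replicate block gave 0 (lowest adjusted p 0.211), and 0 of 6 same-number pairs correlated best with each other.

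For VRC against NTS, DESeq2 gave 1 gene. Leaving out each library number of an exposure at all sites gave 0 to 6, and the 6 came without number 4 of 3 h. The goat as a block, inferred from the library number, gave 0 (lowest adjusted p 0.137), as it did for VRC against RTN (0.201). The other settings gave 0. The block thus changed no call.

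Of the 24 named genes, 0 changed direction in any planned setting, and the added fits were not counted. They were picked for their low p in the main fit, and the settings reuse its libraries. Their stable direction is therefore no independent evidence. Genes not picked by p did change direction in planned settings. NRG2 did so in 8 settings, HBQ1 and MAP1LC3A in 6 each, MEOX2 and ACER2 in 5 each, and TTR and PHLDA3 in 1 each. NRG2, HBQ1, MAP1LC3A, MEOX2 and ACER2 had main differences close to 0. Without number 4 of 24 h the difference in total counts was 0.641 M and in genes detected 123.6, both the other way round from the full set. Over genes of at least 1 CPM the median SE of the difference was 0.143.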
